A study of Homo sapiens with 4 samples.

Results

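The cells described here are the cells of the mesothelioma line MSTO-211H with the highest share of RNA from the mitochondrial genome. In each of 4 single-cell libraries, all deposited barcodes were ranked by the share of raw UMIs (unique molecular identifiers, 1 per captured RNA molecule) that came from genes whose symbol starts with MT-. The top 10% of each library were taken, which gave 1643 of 16424 cells. They were 701 of 7006 cells in Drug_Radiation, 381 of 3806 in Drug, 243 of 2428 in Radiation and 318 of 3184 in Control, and are called high-mitochondrial cells below. No barcode was shared between libraries. MSTO-211H is an established human pleural mesothelioma line, labelled wild type here and grown in suspension without serum, with a neuronal supplement, EGF, bFGF and heparin. Drug_Radiation received 10 µM QTP and then 4 Gy the next day, Drug received 10 µM QTP, Radiation received vehicle and 4 Gy, and Control received vehicle alone. All were collected 48 h after the time of irradiation and dissociated with TrypLE. There was 1 library per treatment, and nothing in the labels says how many cultures each came from. The labels name a PIPseq V T2 3′ kit in the protocol and 10x Genomics in the description, and this was not resolved.

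The mitochondrial genome is transcribed inside the organelle and supplies a small set of mRNAs, all for subunits of the respiratory chain and the ATP synthase. The other subunits, and the proteins that copy, translate and import for the organelle, are encoded in the nucleus and read as ordinary messenger RNA. In single-cell RNA data the mitochondrial share of UMIs is widely used as a measure of cell quality, and it also differs between cell types with their mitochondrial content. The ranking used the mitochondrial and the total UMIs of a cell and no nuclear-encoded gene by itself. The make-up of the nuclear-encoded UMIs is therefore the measurement compared below.

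The cells were chosen by their mitochondrial share of UMIs, and the values of that share are given as a description. The median mitochondrial share was 9.51% in high-mitochondrial and 5.02% in other cells of Drug_Radiation, 8.66% and 3.87% in Drug, 6.15% and 3.39% in Radiation, and 5.19% and 3.07% in Control. The last cell inside the limit stood at 7.78462% and the first outside at 7.78271% in Drug_Radiation. Those shares were 6.2461% and 6.23981% in Drug, 5.14286% and 5.14096% in Radiation, and 4.59031% and 4.5854% in Control. The limit cut a continuous distribution, since 139 of 701, 75 of 381, 84 of 243 and 141 of 318 members, in that order of libraries, lay within 0.5 percentage points above it. Only 16, 4, 3 and 1 of them had 20% mitochondrial UMIs or more. The highest shares were 29.2%, 24.2%, 21.5% and 27.1%. A cell called high-mitochondrial in Control would thus not be one in Drug_Radiation unless its share was over 7.78%, and the name holds within a library.

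**Figure D1:**
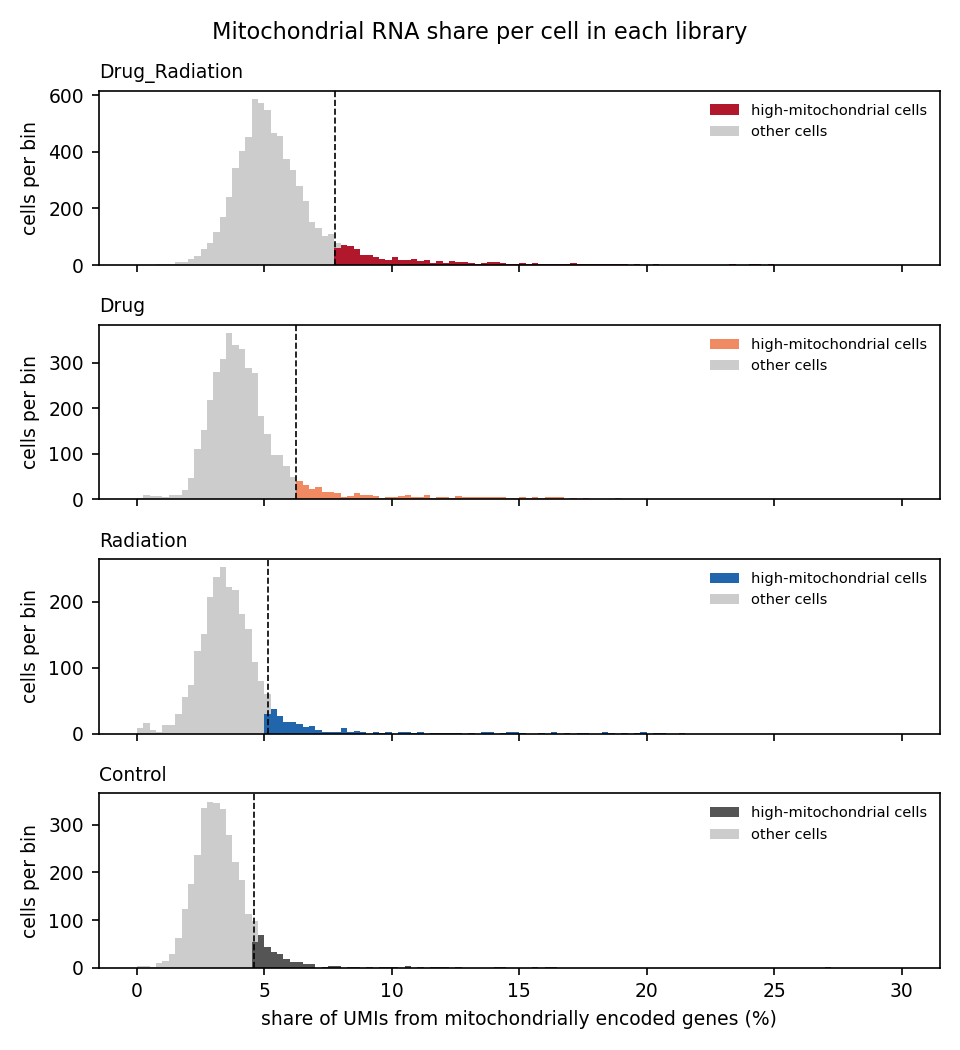
Number of cells per bin of 0.25 percentage points (vertical axis) by share of UMIs from mitochondrially encoded genes in % (horizontal axis) in the 4 libraries, with high-mitochondrial cells in colour, other cells in grey and the limit as a dashed line. The limit lies at 7.78% in Drug_Radiation, 6.25% in Drug, 5.14% in Radiation and 4.59% in Control, on the right shoulder of a single-peaked distribution with a long tail.

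Both genes that mark these cells, MT-CO1 (a catalytic subunit of complex IV) and MT-ND4 (a subunit of complex I), took part in the excess, which was spread over all 13 mitochondrial mRNAs in the files. MT-CO1 made up 5.47% of mitochondrial UMIs in high-mitochondrial and 5.96% in other cells of Drug_Radiation, 6.03% and 6.79% in Drug, 4.86% and 5.26% in Radiation, and 6.06% and 6.09% in Control. MT-ND4 made up 11.4% and 10.5% in Drug_Radiation, 10.8% and 10.4% in Drug, 11.8% and 11.6% in Radiation, and 14.3% and 13.8% in Control. The excess was therefore not that of 1 transcript. MT-ND6, the mRNA made from the other strand of the mitochondrial genome, had a lower part of mitochondrial UMIs in the high-mitochondrial cells of all 4 libraries: 0.259% in high-mitochondrial and 0.422% in other cells of Drug_Radiation, 0.227% and 0.351% in Drug, 0.172% and 0.299% in Radiation, and 0.202% and 0.308% in Control. No ribosomal RNA of the mitochondrial genome is among the features used here.

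High-mitochondrial cells held fewer nuclear-encoded UMIs, a quantity that enters the ranking and gets no test. Their median was 10305 nuclear-encoded UMIs against 17893 in the other cells of Drug_Radiation, 9616 against 20600 in Drug, 3532 against 5308 in Radiation and 2001.5 against 2276 in Control. Mitochondrial UMIs were higher at the same time, with medians of 1206 against 978, 1071 against 849, 269 against 190 and 116 against 74. Depth itself differed between libraries, with more UMIs per cell in both QTP libraries, so QTP and depth cannot be told apart. Because depth moves with membership, the fit across genes and the gene lists below were also run against other cells of nearly the same nuclear-encoded UMIs, 1 for each high-mitochondrial cell (nearest-depth cells).

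At a fixed depth, the high-mitochondrial cells showed more different genes. When each cell was thinned to 1000 nuclear-encoded UMIs, the median number of genes detected was 654 in high-mitochondrial and 583 in other cells of Drug_Radiation, 687 and 628 in Drug, 588 and 560 in Radiation, and 539 and 508 in Control. The log2 ratio averaged 0.11 ± 0.04 (SD, n = 4 libraries) and was above 0 in 4 of 4, for which the exact sign-flip permutation test over libraries gave p = 0.13, two-sided, the smallest that 4 libraries allow. Against nearest-depth cells, with 560, 595, 542 and 492 genes, it averaged 0.17 ± 0.05 (SD, n = 4; exact permutation p = 0.13). Unthinned, the order was the reverse, with 3424 against 4001, 3489 against 4494, 1416 against 1788 and 894.5 against 911 genes. In Control, 9 high-mitochondrial and 27 other cells were too shallow to be thinned.

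Markers of other cell types stayed near 0 in the high-mitochondrial cells. The 5 T cell markers summed to between 0 and 1.06 CPM (UMIs scaled to the nuclear-encoded total) over the 4 libraries in high-mitochondrial cells and to between 0.292 and 0.487 CPM in other cells. The 3 B cell markers reached 1.06 against 0.424 CPM, the 4 endothelial markers 3.26 against 1.09 CPM, the 4 erythroid markers 4.11 against 3.01 CPM and PTPRC, the pan-leukocyte antigen, 0.486 against 0.365 CPM. In the macrophage list nearly all UMIs were of CD68, a lysosomal protein made by many cells, and CD14, AIF1, TYROBP and LYZ were at 0 in high-mitochondrial cells of all 4 libraries. The 5 epithelial markers, mainly keratins, summed to between 4395 and 5440.5 CPM in high-mitochondrial and between 4588 and 5602 CPM in other cells. The 9 mesenchymal markers summed to between 3018 and 5039 against between 2983 and 4797 CPM. Of the 8 mesothelial markers, CALB2 and MSLN gave most UMIs, the sum was 38.3 to 69.7 against 37.3 to 64.8 CPM, and PDPN was at 0 in all high-mitochondrial cells.

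Across the genome, nuclear-retained long noncoding RNAs, extracellular matrix genes and chromatin and splicing regulators took a larger share of nuclear-encoded UMIs in high-mitochondrial cells. Cytosolic ribosomal proteins, nuclear-encoded respiratory subunits and mitochondrial ribosomal proteins took a smaller share. These are shares and not amounts per cell, since high-mitochondrial cells held fewer nuclear-encoded UMIs. UMIs were summed over the high-mitochondrial and over the other cells of each library, and the 4 pairs of sums were tested with edgeR's quasi-likelihood test with the library as a block, with Benjamini-Hochberg adjustment over all genes tested. Of 10259 nuclear-encoded genes, 3459 (33.7%) were higher and 2872 (28.0%) were lower at an adjusted p under 0.05. Of these, 1994 and 2136 had the same sign in all 4 libraries. Against nearest-depth cells, 2668 of 10381 genes (25.7%) were higher and 2226 (21.4%) were lower. Among them were 2442 of the 3459 and 2093 of the 2872, and 2 genes had the opposite call. Since so large a share of all genes passed, the count for any list is read beside these percentages. The libraries differ in treatment, so the test asks for an average difference over 4 treatments, in which deeper sums weigh more. A gene can pass it without the same sign in each library. It does not measure a spread between cultures of 1 treatment.

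The split between higher and lower depends on the scaling. Ratios are on TMM scaling, which sets the bulk of genes near 0 (median of all genes 0.05 on the log2 scale). Scaling by the nuclear-encoded total, which the ribosomal protein genes fill in large part, put the median at 0.38, a shift of 0.33, and called 5959 genes (58.1%) higher and 914 (8.91%) lower. All 3459 genes stayed above 0 under it, while 638 of the 2872 came to lie above 0 and none of these 2872 was called higher. A lower ratio below is thus lower relative to the bulk of genes. Without Drug_Radiation, the library with the most cells, 1767 genes were higher and 1631 lower. Without Drug, 1866 were higher.

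Against all other cells, nuclear-retained long noncoding RNAs had the highest median of the lists. Of 14 tested, 10 were higher and 1 was lower, with a median log2 ratio of 0.63 beside 0.05 over all genes. NEAT1, the RNA that builds paraspeckles in the nucleus (chr11:65422800-65445500, plus strand in hg38, 22.8 kb), had 571 CPM in Drug_Radiation, 555 in Drug, 358 in Radiation and 273 in Control high-mitochondrial cells, against 187, 163, 141 and 140 CPM in the other cells of those libraries. Every high-mitochondrial sum lay above every other sum, and the log2 ratio averaged 1.42 ± 0.35 (SD, n = 4) (paired fit 1.48, adjusted p = 1.57e-11). MALAT1, a nuclear speckle RNA, had 1043 CPM in Drug_Radiation, 1871 in Drug, 2692 in Radiation and 1503 in Control high-mitochondrial cells, against 573, 889, 1405 and 1038 CPM in the other cells of those libraries. The sums overlapped between libraries, but within each library the high-mitochondrial sum was higher, by 0.85 ± 0.23 (SD, n = 4) on average (paired fit 0.86, adjusted p = 2.70e-08). Together, MALAT1 and NEAT1 made up 0.198% of nuclear-encoded UMIs in high-mitochondrial and 0.0717% in other cells of Drug_Radiation, 0.319% and 0.111% in Drug, 0.298% and 0.133% in Radiation, and 0.157% and 0.0886% in Control.

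LINC-PINT, a p53-regulated long noncoding RNA (chr7:130939000-131110000, minus strand, 171 kb), had the largest ratio of the named genes against all other cells. It stood at 25.8 CPM in Drug_Radiation, 25.7 in Drug, 8.70 in Radiation and 20.2 in Control high-mitochondrial cells, against 7.27, 6.88, 4.50 and 8.42 CPM in the other cells of those libraries. The high-mitochondrial sums lay above all other sums, and the paired fit gave 1.78, adjusted p = 1.94e-11. In Control and Radiation high-mitochondrial cells it rests on 13 and 8 UMIs. The sums came close, at 8.70 CPM in Radiation high-mitochondrial against 8.42 CPM in Control other cells. FTX, a long noncoding RNA of the X inactivation centre spanning 347 kb, had 102 CPM in Drug_Radiation, 108 in Drug, 72.9 in Radiation and 96.2 in Control high-mitochondrial cells, against 35.1, 35.2, 29.3 and 35.3 CPM in the other cells of those libraries. Its ratio was even across treatments, at 1.45 ± 0.13 (SD, n = 4) (paired fit 1.53, adjusted p = 1.63e-13). GAS5 was the one member of the list that was lower; its RNA is the spliced host of snoRNAs and carries a terminal oligopyrimidine start like the ribosomal protein mRNAs. It had 1389.9 CPM in Drug_Radiation, 1172 in Drug, 1943 in Radiation and 2185 in Control high-mitochondrial cells, against 2059, 1553, 2372 and 2646 CPM in the other cells of those libraries (paired fit -0.39, adjusted p = 0.000519). Against nearest-depth cells 9 of the 14 were higher and 1 was lower, with a median of 0.56, beside 0.57 for the extracellular matrix genes.

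Among all genes called with the same sign in 4 libraries, the 12 highest ratios, from 1.78 to 1.45, included those of LINC-PINT, SLC35F3, LINC01004, MIR181A1HG, MAML2, LINC00106, LINC00472, FTX, LINC01572, NEAT1 and NPIPB13. Of the 12, 8 are long noncoding RNAs in GENCODE 29, beside 524 of the 10219 tested genes that it annotates. MAML2, a coactivator of Notch signalling with a gene of 367 kb, had 35.6 CPM in Drug_Radiation, 31.99 in Drug, 15.2 in Radiation and 27.9 in Control high-mitochondrial cells, against 10.9, 10.98, 6.14 and 15.5 CPM in the other cells of those libraries (paired fit 1.57, adjusted p = 1.94e-11). All high-mitochondrial sums but that of Radiation lay above all other sums. SLC35F3, a solute carrier family member spanning 420 kb, differed more in the QTP libraries, with log2 ratios of 1.62, 1.84, 1.11 and 0.24 in Drug_Radiation, Drug, Radiation and Control. LINC00472, LINC01572, LINC01004, LINC00106 and MIR181A1HG were at 5 to 40 CPM in the high-mitochondrial cells, and in Control and Radiation they rest on 6 to 18 UMIs each. In other cells LINC00106 stood at 1.94 to 2.68 CPM and MIR181A1HG at 1.82 to 4.05 CPM. These 2 genes thus passed the filter of 5 CPM only through the high-mitochondrial sums. LINC01004, at 2.85 to 6.80 CPM in other cells, and NPIPB13, at 3.20 to 5.47 CPM, also needed those sums to pass. LINC-PINT and SLC35F3 were below the filter in the other cells of Radiation and needed them as well. The place of all these genes among the highest is not independent of the filter. Nor is the count of 8 long noncoding RNAs, which holds LINC00106, MIR181A1HG, LINC01004 and LINC-PINT. NPIPB13 belongs to a family of near-identical copies and LINC01004 is annotated antisense, so their counts are uncertain. Against nearest-depth cells the ratio of LINC00106 was larger (1.75), and those of the other highest genes named here were smaller. There MAML2 stood at 0.79, MIR181A1HG at 0.97, FTX at 0.98, NEAT1 at 1.11 and LINC-PINT at 1.21.

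The 12 lowest ratios were those of NPPB, NDUFA4L2, PIMREG, CDKN3, UBE2C, CARD16, CASC8, SCOC-AS1, RAMP2, CDCA5, H4C3 and CCNA2, from -1.39 to -1.02. CASC8 and SCOC-AS1 are annotated antisense and the strand used in counting is not given in the sources used here, so their counts are uncertain. The 12 include a group of cell division genes (PIMREG, CDKN3, UBE2C, CDCA5, H4C3 and CCNA2). NPPB, which encodes the natriuretic peptide BNP, had 12.8 CPM in Drug_Radiation, 14.5 in Drug, 8.70 in Radiation and 20.2 in Control high-mitochondrial cells, against 34.1, 39.2, 28.9 and 33.2 CPM in the other cells of those libraries. All high-mitochondrial sums lay below all other sums, and the paired fit gave -1.39, adjusted p = 3.21e-10. In Control and Radiation high-mitochondrial cells NPPB rests on 13 and 8 UMIs and PIMREG on 1 and 5. There CARD16, SCOC-AS1, RAMP2, CDCA5, H4C3 and CCNA2 rest on 3 to 8 UMIs each, so their ratios in those 2 libraries are uncertain. NDUFA4L2, a hypoxia-inducible mitochondrial protein related to a complex IV subunit, had 25.01 CPM in Drug_Radiation, 35.5 in Drug, 39.2 in Radiation and 40.3 in Control high-mitochondrial cells, against 62.7, 97.8, 95.5 and 67.3 CPM in the other cells of those libraries. It was lower in 4 of 4 libraries, by -1.18 ± 0.31 (SD, n = 4) on average (paired fit -1.33, adjusted p = 5.34e-11). Neither was weaker against nearest-depth cells, where NPPB stood at -1.72 and NDUFA4L2 at -1.50.

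**Figure D2:**
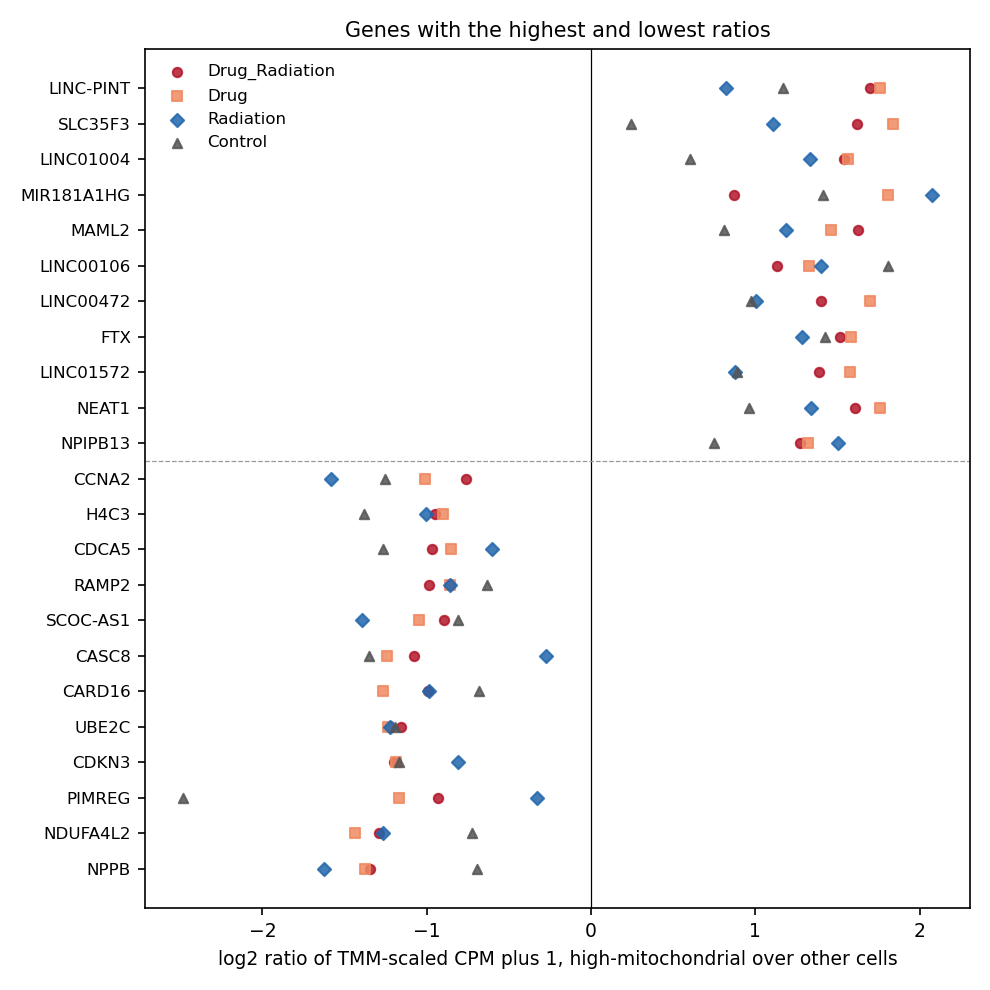
Log2 ratio of TMM-scaled CPM plus 1, high-mitochondrial over other cells (horizontal axis), of the genes named here among the 12 highest and the 12 lowest paired ratios (vertical axis); each point is 1 library. All points lie on 1 side of 0 for each gene, which the choice of these genes required. The values closest to and farthest from 0 named here are 0.24 for SLC35F3 in Control and -2.48 for PIMREG in Control, the latter on 1 UMI in high-mitochondrial cells.

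The nuclear-encoded side of the respiratory chain went opposite to the mitochondrially encoded side that chose the cells. Of 37 complex I subunits tested, 35 were lower and 1 was higher (median -0.50). Of 14 subunits of complexes II and III 13 were lower, of 12 of complex IV 11, and of 19 of the ATP synthase 19, with medians of -0.50, -0.49 and -0.55; none of these was higher. These counts depend on the scaling. On the nuclear-encoded total, where 8.91% of all genes were lower and 58.1% higher, 24 complex I subunits were lower and 2 higher. For complexes II and III these were 9 and 1, for complex IV 11 and 1, and for the ATP synthase 13 and 0. As a share of nuclear-encoded UMIs, the complex I subunits summed to 0.745% in Drug_Radiation, 0.833% in Drug, 0.71% in Radiation and 0.794% in Control high-mitochondrial cells, against 0.881%, 1%, 0.742% and 0.858% in the other cells of those libraries. Against nearest-depth cells 33 of the 37 were lower and 1 was higher (median -0.51), with sums of 7454 CPM in Drug_Radiation, 8328 in Drug, 7102 in Radiation and 7937 in Control high-mitochondrial cells, against 8306, 9793, 6958 and 8689 CPM in nearest-depth cells. The summed share was thus not lower in Radiation at that depth, and the sums for complexes II and III were close there, at 4412 against 4399 CPM. The medians per library were larger in size in Drug_Radiation and Drug than in Radiation and Control, at -0.62, -0.62, -0.24 and -0.31 for complex I and -0.66, -0.64, -0.35 and -0.40 for the ATP synthase.

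ATP5PO, the stalk subunit that joins the membrane and catalytic parts of the ATP synthase, had 184 CPM in Drug_Radiation, 217 in Drug, 255 in Radiation and 349 in Control high-mitochondrial cells, against 309, 349, 364 and 507 CPM in the other cells of those libraries. It was lower within each library, by -0.62 ± 0.11 (SD, n = 4) (paired fit -0.64, adjusted p = 3.48e-07). NDUFB3, an accessory complex I subunit, had 114 CPM in Drug_Radiation, 124 in Drug, 109.9 in Radiation and 159.8 in Control high-mitochondrial cells, against 188, 214, 152 and 229 CPM in the other cells of those libraries (paired fit -0.66, adjusted p = 3.95e-07). UQCR10, a small subunit of complex III, fell by 0.63 on the log2 scale (adjusted p = 6.18e-07) and COX4I1, a complex IV subunit, by 0.42 (adjusted p = 0.000104). ATP5F1B, the catalytic subunit, was lower by less, with a paired ratio of -0.26, adjusted p = 0.00775 on TMM scaling and 0.03 on the nuclear-encoded total. NDUFS1, the large iron-sulfur subunit of complex I and the one member that was higher, had 51.4 CPM in Drug_Radiation, 58.9 in Drug, 54.4 in Radiation and 51.2 in Control high-mitochondrial cells, against 43.2, 52.5, 45.5 and 46.3 CPM in the other cells of those libraries. The within-library ratio was 0.20 ± 0.06 (SD, n = 4) (paired fit 0.21, adjusted p = 0.0249), and its gene spans 44.8 kb against a median of 14.3 kb for the list.

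Mitochondrial ribosomal proteins and import factors followed the respiratory subunits. All 76 mitochondrial ribosomal protein genes tested were lower (median -0.52; 75 of 76 against nearest-depth cells), and 24 of 27 import genes were lower and none higher (median -0.53). On the nuclear-encoded total 43 of the 76 were lower and 0 higher (median -0.22). Of the import genes, 14 were lower and 2 higher on that scale (median -0.22). MRPL48, a protein of the large mitochondrial ribosomal subunit, had 22.4 CPM in Drug_Radiation, 21.6 in Drug, 15.2 in Radiation and 21.7 in Control high-mitochondrial cells, against 36.7, 36.3, 29.1 and 33.99 CPM in the other cells of those libraries (paired fit -0.74, adjusted p = 6.30e-07). TIMM10, a chaperone of the intermembrane space, had 20.8 CPM in Drug_Radiation, 24.4 in Drug, 20.7 in Radiation and 24.8 in Control high-mitochondrial cells, against 36.9, 38.8, 22.4 and 33.2 CPM in the other cells of those libraries. Its high-mitochondrial and other sums overlapped between libraries, and the paired ratio was -0.69, adjusted p = 3.29e-06. Mitochondrial antioxidant genes were lower in 9 of 11 and higher in none (median -0.44), and 5 were lower and 2 higher on the nuclear-encoded total.

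Genes that make and process mitochondrial RNA did not follow this. Of 18 genes of mitochondrial transcription and replication, 6 were higher and 4 lower, beside 33.7% and 28.0% of all genes. Their median was -0.12, and 0.22 on the nuclear-encoded total. Of 23 genes of mitochondrial RNA processing and decay, 6 were higher and 5 lower (median 0.06). TFAM, which packages and activates the mitochondrial genome, was lower, at 39.9 CPM in Drug_Radiation, 57.1 in Drug, 67.5 in Radiation and 69.8 in Control high-mitochondrial cells, against 53.8, 75.9, 77.1 and 89.99 CPM in the other cells of those libraries (paired fit -0.38, adjusted p = 0.000287). NRF1 and PPRC1, nuclear regulators of mitochondrial genes, were higher, with paired ratios of 0.75, adjusted p = 8.88e-06 and 0.58, adjusted p = 0.00126. NRF1 had 15.1 CPM in Drug_Radiation, 18.6 in Drug, 15.2 in Radiation and 7.76 in Control high-mitochondrial cells, against 9.16, 10.4, 9.77 and 6.80 CPM in the other cells of those libraries, so in Control it rests on few UMIs.

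LRPPRC and SLIRP form a complex that stabilises mitochondrial mRNAs, and they went in opposite directions. LRPPRC had 91.9 CPM in Drug_Radiation, 87.4 in Drug, 79.4 in Radiation and 74.5 in Control high-mitochondrial cells, against 67.6, 62.7, 70.2 and 74.6 CPM in the other cells of those libraries. It was higher in 3 of 4 libraries and level in Control (paired fit 0.36, adjusted p = 0.000636). SLIRP had 415 CPM in Drug_Radiation, 413 in Drug, 554 in Radiation and 735 in Control high-mitochondrial cells, against 673, 625, 630.2 and 969 CPM in the other cells of those libraries. It was lower in 4 of 4, by -0.47 ± 0.23 (SD, n = 4) (paired fit -0.48, adjusted p = 3.60e-05). The LRPPRC gene spans 109 kb and the SLIRP gene 53 kb. FASTKD1, a mitochondrial RNA-binding protein, was higher at 0.56, adjusted p = 2.64e-05.

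Among 16 mitochondrial chaperones and proteases 2 were higher and 6 lower, and the median of -0.05 became 0.27 on the nuclear-encoded total. HSPD1, the chaperonin induced when mitochondrial proteins misfold, did not pass the test (-0.13, adjusted p = 0.154; 0.16 on the total). It had 400.2 CPM in Drug_Radiation, 482 in Drug, 637 in Radiation and 542 in Control high-mitochondrial cells, against 463, 521, 666 and 590.4 CPM in the other cells of those libraries. SPG7, an inner membrane protease, was higher (0.63, adjusted p = 4.61e-06) and GRPEL1, a cofactor of mitochondrial Hsp70, was lower (-0.59, adjusted p = 2.33e-06). Of 20 genes of mitochondrial dynamics and mitophagy 9 were lower and none higher (median -0.19). On the nuclear-encoded total this turned, with 8 higher and 3 lower (median 0.15). MTFP1, a fission protein of the inner membrane, had 46.05 CPM in Drug_Radiation, 55.9 in Drug, 50.05 in Radiation and 37.2 in Control high-mitochondrial cells, against 81.1, 96.97, 77.1 and 71.7 CPM in the other cells of those libraries (paired fit -0.79, adjusted p = 3.38e-08), with all high-mitochondrial sums below all other sums.

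Among the lists, the cytosolic ribosomal proteins took the largest share of UMIs. All 80 ribosomal protein genes tested were lower, with ratios from -0.613 to -0.26 (median -0.50). Together they took 25.9% in Drug_Radiation, 23.6% in Drug, 30.4% in Radiation and 34.7% in Control high-mitochondrial cells, against 32.7%, 28.5%, 33.6% and 37.7% in the other cells of those libraries. RPS15A, a protein of the small subunit, had 2318 CPM in Drug_Radiation, 1971 in Drug, 3099.8 in Radiation and 3552 in Control high-mitochondrial cells, against 4100.1, 3207, 4107 and 5065 CPM in the other cells of those libraries (paired fit -0.61, adjusted p = 6.36e-06). Against nearest-depth cells all 80 were lower again (median -0.66), and on the nuclear-encoded total 77 were called lower (median -0.21 beside 0.38 over all genes).

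Translation factors were lower in 17 of 22 and higher in 2, and 9 were lower and 4 higher on the nuclear-encoded total. EEF1A1, the elongation factor that delivers tRNAs, had 9809 CPM in Drug_Radiation, 7696 in Drug, 15017 in Radiation and 13795 in Control high-mitochondrial cells, against 15545, 12049, 17922 and 16072 CPM in the other cells of those libraries. The ratio was -0.45 ± 0.24 (SD, n = 4) (paired fit -0.45, adjusted p = 0.0013). NACA, a chaperone of nascent chains, was lower at -0.52, adjusted p = 3.17e-05, whereas EIF4G1, the scaffold of the cap-binding complex, was higher at 0.39, adjusted p = 0.000292. Glycolytic genes were lower in 12 of 17 and higher in 1 (median -0.38), and 6 were lower and 3 higher on the nuclear-encoded total (median -0.06). LDHA, lactate dehydrogenase, had 882 CPM in Drug_Radiation, 899.6 in Drug, 888 in Radiation and 867 in Control high-mitochondrial cells, against 1326, 1337, 1234 and 1215 CPM in the other cells of those libraries (paired fit -0.53, adjusted p = 5.90e-06), and GAPDH was lower at -0.52, adjusted p = 6.24e-05. All high-mitochondrial sums of LDHA lay below all other sums.

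Extracellular matrix genes were higher in 16 of 21 and lower in 1, with a median of 0.48 and, against nearest-depth cells, 16 higher and none lower (median 0.57). The list summed to 0.529% in Drug_Radiation, 0.489% in Drug, 0.414% in Radiation and 0.328% in Control high-mitochondrial cells, against 0.386%, 0.358%, 0.327% and 0.242% in the other cells of those libraries. COL6A2, a chain of collagen VI, had 127 CPM in Drug_Radiation, 98.1 in Drug, 119 in Radiation and 72.9 in Control high-mitochondrial cells, against 73.3, 50.2, 57.6 and 47.4 CPM in the other cells of those libraries. The high-mitochondrial sum was higher in each library by 0.84 ± 0.19 (SD, n = 4) (paired fit 0.88, adjusted p = 3.93e-09). LAMA5, a laminin chain of basement membranes, had 86.5 CPM in Drug_Radiation, 65.3 in Drug, 34.8 in Radiation and 54.3 in Control high-mitochondrial cells, against 46.1, 34.3, 27.2 and 31.7 CPM in the other cells of those libraries (paired fit 0.86, adjusted p = 8.13e-09). Actin and adhesion genes went the other way, with 23 of 31 lower and 5 higher (median -0.33), and so did the tubulins, with 10 of 10 lower (median -0.48). On the nuclear-encoded total 9 actin and adhesion genes were lower and 7 higher (median -0.05), and 5 tubulins were lower and 0 higher. LGALS1, a secreted galectin, had 1239 CPM in Drug_Radiation, 1077 in Drug, 1468 in Radiation and 2033 in Control high-mitochondrial cells, against 2108, 1777, 2202 and 2789 CPM in the other cells of those libraries (paired fit -0.64, adjusted p = 1.43e-06), ACTB was lower at -0.29, adjusted p = 0.00732, and FLNA, a large actin crosslinker, was higher at 0.37, adjusted p = 0.000309.

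Chromatin and splicing regulators were higher in 18 of 26 and lower in 2 (median 0.40). KMT2C, a histone H3 lysine methyltransferase, had 31.4 CPM in Drug_Radiation, 30.01 in Drug, 28.3 in Radiation and 31.03 in Control high-mitochondrial cells, against 16.00, 14.1, 12.2 and 15.9 CPM in the other cells of those libraries. The high-mitochondrial sums lay above all other sums, and the ratio was even over libraries, at 1.01 ± 0.11 (SD, n = 4) (paired fit 1.03, adjusted p = 3.07e-09). SRSF3, a small splicing factor, went the other way, with 147 CPM in Drug_Radiation, 159 in Drug, 205 in Radiation and 203 in Control high-mitochondrial cells, against 214, 244, 288 and 300.4 CPM in the other cells of those libraries (paired fit -0.56, adjusted p = 1.87e-06). Nuclear pore and lamina genes were higher in 8 of 14 and lower in 1 (median 0.28, with -0.12 in Control). NUP210, a membrane protein of the nuclear pore, was higher at 0.77, adjusted p = 3.60e-06.

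Stress programmes did not move as blocks. Of 19 genes of the integrated stress response, the pathway in which ATF4 answers to translation arrest, 7 were higher and 4 lower, and the median was -0.04 (0.29 on the nuclear-encoded total). ATF4 itself had 244 CPM in Drug_Radiation, 259.7 in Drug, 343 in Radiation and 196 in Control high-mitochondrial cells, against 344, 359, 368 and 237 CPM in the other cells of those libraries (paired fit -0.36, adjusted p = 0.000669). SLC7A11, a cystine transporter induced by ATF4 and NRF2, was the highest of its list, with 97.8 CPM in Drug_Radiation, 98.1 in Drug, 51.1 in Radiation and 60.5 in Control high-mitochondrial cells, against 45.5, 42.1, 26.5 and 37.5 CPM in the other cells of those libraries. It was higher in each library by 0.97 ± 0.23 (SD, n = 4) (paired fit 1.09, adjusted p = 1.31e-10). DDIT3, which encodes CHOP, did not pass the test (-0.04, adjusted p = 0.705; 0.29 on the total), with log2 ratios of -0.10, -0.15, 0.40 and -0.00 in Drug_Radiation, Drug, Radiation and Control. CEBPB, a transcription factor of the same pathway, was higher in 4 of 4 (0.46, adjusted p = 3.50e-05), and so was the secreted stress cytokine GDF15 (0.28, adjusted p = 0.00502). GDF15 had 420.2 CPM in Drug_Radiation, 332 in Drug, 367 in Radiation and 220.3 in Control high-mitochondrial cells, against 403, 246, 301 and 164 CPM in the other cells of those libraries.

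Of 25 p53 targets 8 were higher, near the 33.7% of all genes, and 6 lower (median 0.07), and members of the list parted. MDM2, the ubiquitin ligase that degrades p53, had 180.1 CPM in Drug_Radiation, 122 in Drug, 119 in Radiation and 118 in Control high-mitochondrial cells, against 107, 65.3, 101 and 73.2 CPM in the other cells of those libraries. It was higher in each library, by 0.64 ± 0.28 (SD, n = 4) (paired fit 0.70, adjusted p = 5.59e-07). CDKN1A, the p53-induced inhibitor of cyclin-dependent kinases, had 417 CPM in Drug_Radiation, 278 in Drug, 408 in Radiation and 242 in Control high-mitochondrial cells, against 503, 341, 454 and 224 CPM in the other cells of those libraries. The ratio did not pass the test and turns with the scaling (-0.18, adjusted p = 0.0605; 0.11 on the nuclear-encoded total). PHLDA3, a short p53 target that restrains AKT, was lower at -0.54, adjusted p = 6.24e-05. Among 17 NRF2 targets 4 were higher and 10 lower (median -0.24), and on the nuclear-encoded total 5 were higher and 0 lower (median 0.08). The ferritin chain FTH1 stood at -0.21, adjusted p = 0.0586 on TMM scaling and 0.08 on the total.

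The counts that follow are to be read beside the 33.7% higher and 28.0% lower over all genes tested. Endoplasmic reticulum chaperones were higher in 6 of 18, near that share, and lower in 1 (median 0.15). Cytosolic heat shock proteins were higher in 1 of 14 and lower in 5 (median -0.09, 0.20 on the total). Apoptosis regulators were higher in 3 of 22 and lower in 8 (median -0.10, 0.24 on the total). Immediate early genes, which respond to dissociation, were higher in 5 of 18 and lower in none (median 0.05). Hypoxia genes were higher in 2 of 16 and lower in 6 (median -0.15, 0.16 on the total). VEGFA, the vascular growth factor in that list, had 76.7 CPM in Drug_Radiation, 84.9 in Drug, 48.96 in Radiation and 65.2 in Control high-mitochondrial cells, against 47.7, 43.8, 44.97 and 42.1 CPM in the other cells of those libraries (paired fit 0.72, adjusted p = 3.79e-07). The ratio was 0.12 in Radiation and 0.62 or more in the other libraries.

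Cell division genes were lower against all other cells on TMM scaling, and this depended on depth and on the scaling. Of 40 G2 and M phase genes 24 were lower and 4 higher (median -0.46). Library medians were -0.24, -0.49, -0.31 and -0.84 in Drug_Radiation, Drug, Radiation and Control, lowest in Control. On the nuclear-encoded total 15 were lower and 11 higher (median -0.12). Against nearest-depth cells 12 of 39 were lower and 7 higher (median -0.04), beside 21.4% and 25.7% of all genes. Members below and above the median of nuclear-encoded UMIs, each against nearest-depth cells, had list medians of opposite sign, 0.28 and -0.22. S phase genes were lower in 17 of 27 and higher in 1 (median -0.31; 0.02 on the nuclear-encoded total), and 9 lower and 1 higher against nearest-depth cells.

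UBE2C, the ubiquitin-conjugating enzyme of mitotic exit, had 48.9 CPM in Drug_Radiation, 56.9 in Drug, 56.6 in Radiation and 97.8 in Control high-mitochondrial cells, against 110.4, 135, 134 and 225 CPM in the other cells of those libraries. All high-mitochondrial sums lay below all other sums, and the ratio was -1.20 ± 0.04 (SD, n = 4) (paired fit -1.21, adjusted p = 4.45e-11). Against nearest-depth cells its ratio was -0.66, and that of CCNA2, cyclin A2, was -0.50 beside -1.02, adjusted p = 5.58e-07 against all other cells. PIMREG and CDCA5, mitotic genes among the lowest, no longer passed the test against nearest-depth cells (-0.59, adjusted p = 0.0933, and -0.53, adjusted p = 0.067). CDKN3, a phosphatase of cyclin-dependent kinases, kept a ratio of -1.19 there. TK1, the thymidine kinase of S phase, was lower at -0.92, adjusted p = 3.50e-08, while POLA1, a polymerase subunit with a gene of 303 kb, was higher at 0.52, adjusted p = 0.00426.

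Some cell division genes did not follow their list. TOP2A, the topoisomerase of dividing cells, had 40.98 CPM in Drug_Radiation, 61.2 in Drug, 42.4 in Radiation and 48.1 in Control high-mitochondrial cells, against 39.1, 60.8, 51.7 and 99.4 CPM in the other cells of those libraries. It was lower in Control and level in both QTP libraries, and its ratio of -0.11, adjusted p = 0.337 did not pass the test and was 0.19 on the nuclear-encoded total and 0.29 against nearest-depth cells. MKI67, a coat protein of mitotic chromosomes, was higher at 0.50, adjusted p = 0.00234, from 0.61 in Drug to -0.42 in Control. CKAP5, a microtubule polymerase with a gene of 103 kb, was higher at 0.53, adjusted p = 0.000106. H4C3 is one of several near-identical histone genes, so its count is uncertain.

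Lipid and lysosome genes were mixed. Fatty acid synthesis genes were higher in 7 of 13 and lower in 2 (median 0.25). ACACA, the rate-limiting carboxylase of fatty acid synthesis (322 kb), had 82.1 CPM in Drug_Radiation, 81.6 in Drug, 44.6 in Radiation and 49.7 in Control high-mitochondrial cells, against 39.6, 37.96, 35.9 and 50.3 CPM in the other cells of those libraries. The ratio was 1.03 in Drug_Radiation and 1.08 in Drug, against 0.31 in Radiation and -0.02 in Control. Of 24 genes of cholesterol synthesis and uptake 2 were higher and 10 lower (median -0.18, 0.16 on the total). The biosynthetic enzyme ACAT2 was lower at -0.77, adjusted p = 1.08e-07. Lysosome genes were higher in 9 of 27, near the 33.7% of all genes, and lower in 6 (median 0.07). PSAP, the precursor of the saposins, had 1161 CPM in Drug_Radiation, 1037 in Drug, 1500.4 in Radiation and 920.1 in Control high-mitochondrial cells, against 944, 733, 1099 and 637 CPM in the other cells of those libraries. It was higher in 4 of 4 (paired fit 0.44, adjusted p = 5.93e-05), while NPC2, a small cholesterol carrier of the lysosome, was lower at -0.55, adjusted p = 5.69e-06.

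**Figure D3:**
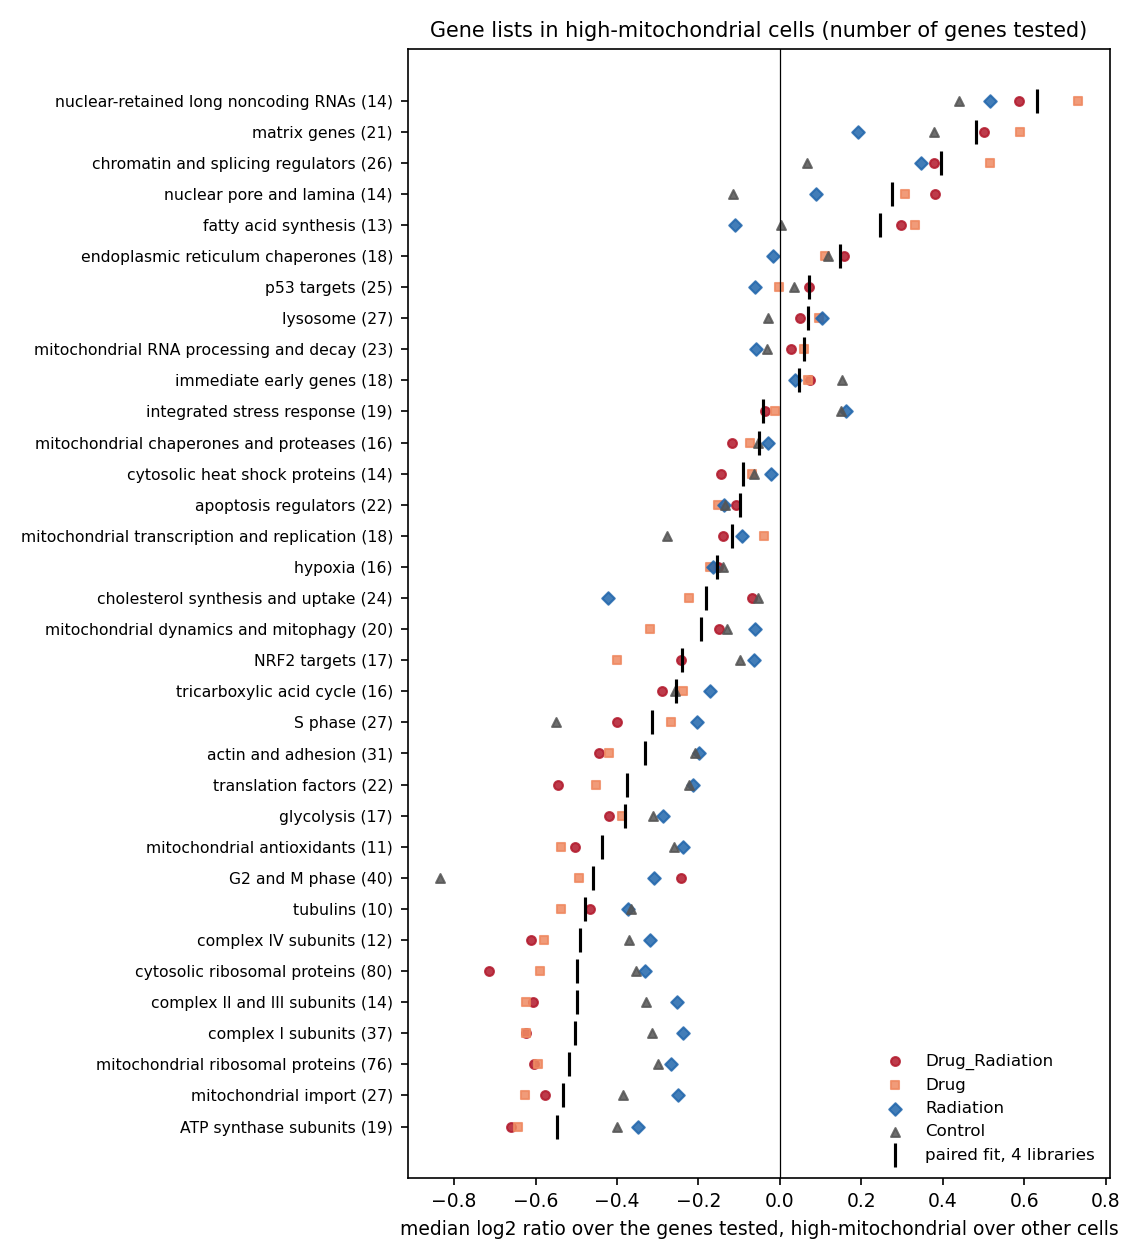
Median log2 ratio, high-mitochondrial over other cells (horizontal axis), over the tested genes of each list of 10 or more genes (vertical axis, number of genes in brackets) in each library, with the median of the paired fit as a bar. Nuclear-retained long noncoding RNAs and matrix genes lie to the right of 0 in all 4 libraries, and ribosomal proteins, respiratory subunits and mitochondrial ribosomal proteins lie to the left in all 4.

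A property that the ranking did not use ran through these lists: the length of the gene on the chromosome. The 9689 protein-coding genes tested that GENCODE 29 annotates were split into 5 equal groups by genomic span. In the shortest group (median 6.23 kb) 8.98% of genes were higher and 57.2% lower, and in the longest (median 170.1 kb) 68.2% were higher and 6.14% lower. The share called higher went up in every step between, over 18.01%, 28.5% and 45.3%, and the median ratios were -0.31, -0.14, 0.04, 0.22 and 0.48 from short to long. Against nearest-depth cells they were -0.27, -0.08, 0.07, 0.20 and 0.37. Genes outside every list gave the same order, with 10.5% and 69.0% higher in the shortest and the longest group.

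Long genes differ from short ones in other ways as well. Across the 9689 genes the Spearman correlation of the ratio was 0.54 with genomic span, 0.58 with exonic length and -0.43 with mean level. These describe the genes of 4 libraries, are not independent replicates and carry no test. When the genes were cut into 3 groups by mean level and 3 by span, the ratio still went up with span at each level. From short to long, the medians were -0.42, -0.20 and 0.09 at the highest level, -0.18, 0.05 and 0.43 at the middle one, and 0.02, 0.23 and 0.48 at the lowest. Whether reads in introns were counted is not given in the sources used here, and the part of it in the pattern was not tested. Long noncoding RNAs as a class did not share the ratio of the nuclear-retained list, with 171 of 524 higher, 128 lower and a median of 0.01.

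**Figure D4:**
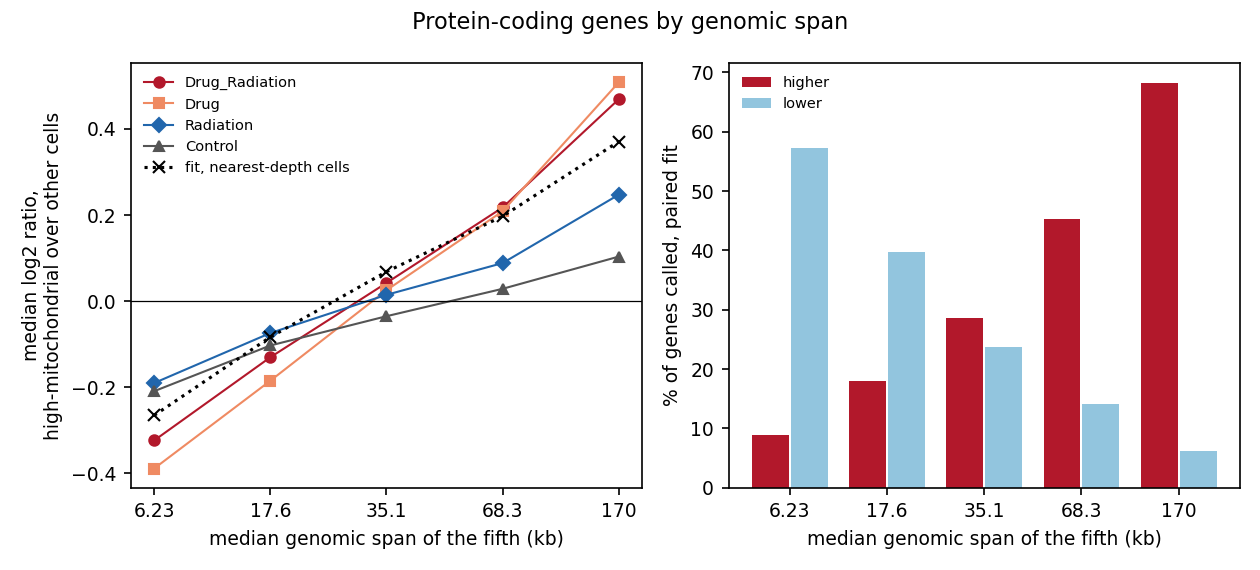
Left, median log2 ratio, high-mitochondrial over other cells (vertical axis), of protein-coding genes in 5 groups of genomic span (horizontal axis, median span in kb) for each library, with the fit against nearest-depth cells dotted. Right, percentage of each group called higher or lower in the paired fit; the lines go up with span in each library, from -0.32 to 0.47 in Drug_Radiation and from -0.21 to 0.10 in Control.

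The last decile of mitochondrial share stood outside the range of the other deciles, and some values also moved along deciles 1 to 9. When each library was cut into 10 equal groups from low to high share, the ribosomal protein share in decile 10 was below that of each of deciles 1 to 9 in all 4 libraries. It was 25.9% in decile 10 against 30.5% to 34.9% in deciles 1 to 9 of Drug_Radiation, 23.6% against 27.6% to 29.9% in Drug, 30.4% against 32.7% to 36.3% in Radiation, and 34.7% against 36.6% to 40.9% in Control. In Control this share was 40.9% in decile 1 and 37.2% in decile 9, and in Radiation 36.3% and 32.7%. The summed nuclear-retained long noncoding RNAs stood at 7816 CPM in decile 10 and at 3999 to 4972 CPM in deciles 1 to 9 of Drug_Radiation, and at 6209 CPM and 4522 to 4939 CPM in Control. Decile 10 was also above all others for matrix genes, for chromatin and splicing regulators and for genes detected at 1000 UMIs, in 4 of 4 libraries.

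**Figure D5:**
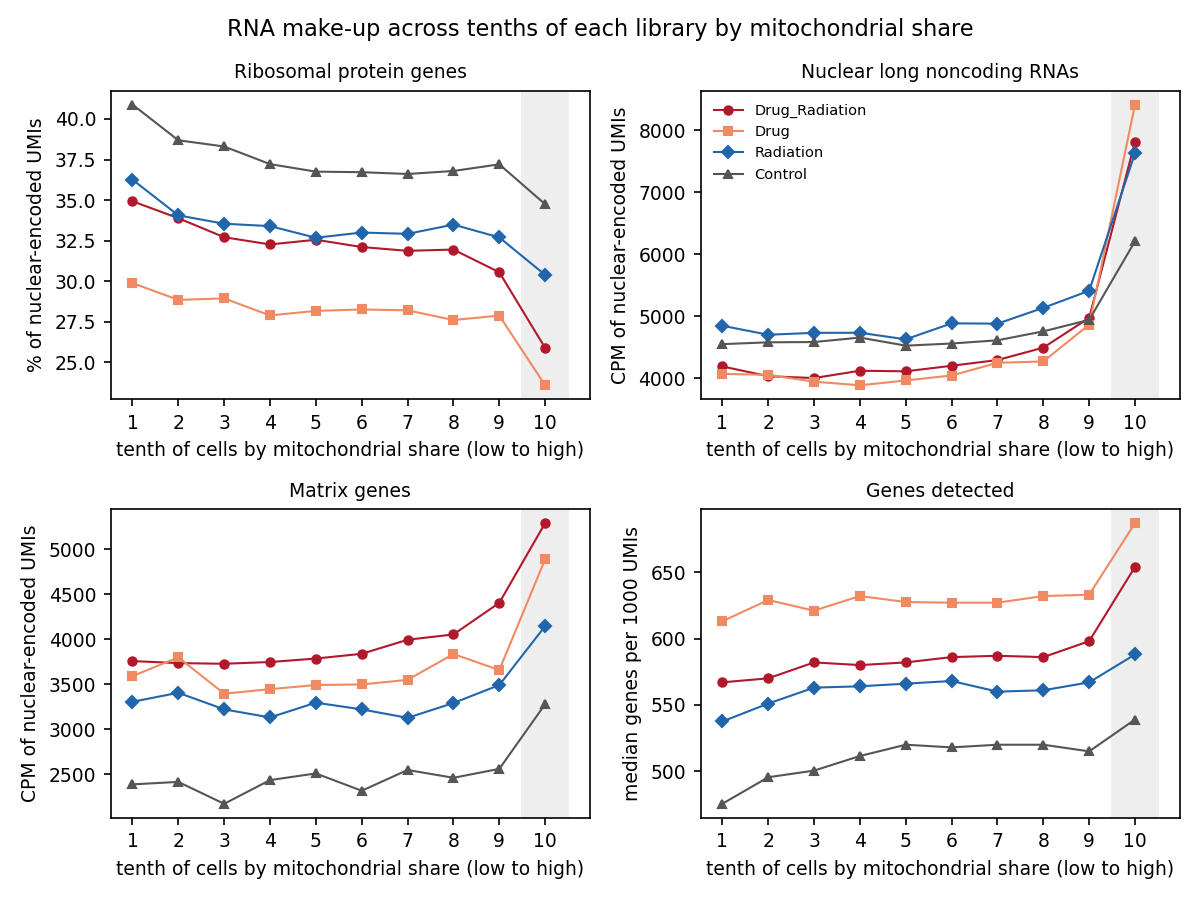
Ribosomal protein share (% of nuclear-encoded UMIs), summed CPM of nuclear-retained long noncoding RNAs and of matrix genes, and median genes detected per 1000 nuclear-encoded UMIs (vertical axes) over the 10 deciles of mitochondrial share in each library (horizontal axes, low to high, high-mitochondrial cells shaded). In each panel and library decile 10 lies outside the range of deciles 1 to 9, such as 25.9% against at least 30.5% for the ribosomal protein share in Drug_Radiation.

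Between treatments, the difference was of the same kind and of unequal size. A single library gives no test, so genes were counted by size: at least 2-fold, with 20 CPM or more in either sum. There were 118 genes higher (1.95% of 6047) and 12 lower (0.198%) in Drug_Radiation, 219 higher (3.62% of 6043) and 24 lower (0.397%) in Drug, 88 higher (1.55% of 5663) and 12 lower (0.212%) in Radiation, and 109 higher (1.84% of 5917) and 69 lower (1.17%) in Control. The sums of high-mitochondrial cells hold 8222841 nuclear-encoded UMIs in Drug_Radiation and 4606830 in Drug, against 939077 in Radiation and 730226 in Control, where counting error is larger.

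The difference of the ratio between the QTP libraries and those without QTP was tested as an interaction in the same model, 2 libraries against 2. For 762 of 10259 genes it passed an adjusted p under 0.05, 167 (1.63%) with a higher and 595 (5.8%) with a lower ratio under QTP. Ribosomal protein genes took 78 of the 595, each with a lower ratio under QTP, and 21 were complex I subunits. The library medians of the ribosomal protein list were -0.71, -0.59, -0.33 and -0.35 in Drug_Radiation, Drug, Radiation and Control. Of single genes, EEF1A1 differed by -0.42 and FTH1 by -0.40, while NEAT1 differed by 0.49 and ACACA by 0.92. Against nearest-depth cells 89 genes passed, 85 of them among the 762 and 40 of them ribosomal protein genes. The gap in UMIs between high-mitochondrial and other cells was also wider in the QTP libraries, so treatment, depth and library cannot be told apart.

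For radiation the same interaction passed for 1 gene (0.00975%) by edgeR, 94 had an unadjusted p under 0.05, and DESeq2 called 0. That gene was KCNJ6, a potassium channel subunit, at -1.42 (adjusted p = 0.00301). It had 31.4 CPM in Drug_Radiation, 43.04 in Drug, 6.53 in Radiation and 15.5 in Control high-mitochondrial cells, against 34.00, 15.1, 7.52 and 13.1 CPM in the other cells of those libraries. The high-mitochondrial sum was highest in Drug, and no call was left against nearest-depth cells, where 204 genes had an unadjusted p under 0.05. In simulated data the radiation interaction recovered 50% of 2-fold changes, so the count of 1 gene does not show that other genes were unchanged.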

How the data were processed

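The deposited values are the authors' raw UMI counts of 37468 features in 4 libraries. The submitters' processing notes name the build hg38 and the tool Seurat 4.3.3. The aligner, annotation, counting strand and barcode calling were not given in the sources used here. All deposited barcodes entered, no doublet caller was run and no cell was removed, so doublets may remain. The members, gene lists and tests were chosen with earlier results of these data known, and 2 list symbols were replaced by the names in the files.

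In each library, UMIs of the 10% of barcodes with the highest mitochondrial share and of the other barcodes were summed, without the 13 mitochondrially encoded features. The 8 sums held 730226 to 133482320 nuclear-encoded UMIs. Genes with 5 CPM or more in at least 4 of 8 sums were tested with edgeR 4.0.16 (R 4.3.3; glmQLFit, TMM, library as a block, Benjamini-Hochberg at 0.05), and interactions with QTP and radiation in the same way. Both sums of a pair come from 1 library, which is what pairs them. Levels of single genes are TMM-scaled CPM, and ratios per library are log2 of that CPM plus 1. Marker values, list sums, decile values and the filter use CPM of the nuclear-encoded total. Other cells nearest in nuclear-encoded UMIs were taken once each. Named genes were the 12 highest and 12 lowest called with 1 sign in 4 libraries, 16 set genes, the 2 highest and 2 lowest of each of 35 lists and 5 per direction of each interaction, without XIST, Y-linked and unnamed features; the text prints a part of them, and some genes are not reported here. Gene positions are from GENCODE 29, which held 99.6% of the genes tested. The fits were tested on simulated data drawn with 1 common dispersion (0.0042). The paired fit recovered 98% of 2-fold changes, the QTP interaction 44% and the radiation interaction 50%. Changes of 1.5-fold were recovered at 72%, 18% and 22%. Alternatives were DESeq2 1.42.0, scaling, filters, 5% and 20% of barcodes, a limit of 20% mitochondrial UMIs, no block, and each library left out. The split of the members by depth was chosen after seeing the data. SDs over 4 libraries hold the treatments as well as counting error.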

Additional observations from a re-analysis of the deposited data

Results flagged for a closer look

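For 30 of the genes printed in the text the ratio of high-mitochondrial to other cells differed between the QTP libraries (Drug_Radiation and Drug) and those without QTP (Radiation and Control), by the interaction test in edgeR at an adjusted p under 0.05. The difference in log2 ratio was positive for SLC35F3 (1.09), ACACA (0.92), TOP2A (0.70), NEAT1 (0.49) and MDM2 (0.40). Negative differences were found for MT2A (-0.48), MT1X (-0.46), EEF1A1 (-0.42), FTH1 (-0.40), SLIRP (-0.36), NPC2 (-0.33), ATF4 (-0.32), RPS15A (-0.31), NACA (-0.30), COX4I1 (-0.29), UQCR10 (-0.29), GAPDH (-0.26), RPS2 (-0.24), LGALS1 (-0.22) and ACTB (-0.21). Of these 20 genes FTH1, SLIRP and MT2A still passed the test against nearest-depth cells, with adjusted p-values of 0.0246, 0.0204 and 0.0155, and the other 17 did not. QTP, UMIs per cell and library cannot be told apart in this design.

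The largest differences in either direction rest on few UMIs in Control and Radiation. They were 2.46 for SPAG5, 2.40 for ZCCHC3, 2.17 for ZBED4, 2.15 for CDH10 and 1.90 for KLHL8, and -2.21 for TMEM108, -1.99 for ELF4, -1.72 for VAV3, -1.66 for CCL26 and -1.62 for ZFHX4-AS1. SPAG5, a spindle protein, had 0 UMIs in Control and 2 in Radiation high-mitochondrial cells, and ZBED4 had 1 and 3. ELF4, a transcription factor, had 6.85 CPM in Drug_Radiation, 6.93 in Drug, 9.79 in Radiation and 45.00 in Control high-mitochondrial cells, against 7.44, 6.96, 6.05 and 6.64 CPM in the other cells of those libraries, and the high value was that of Control high-mitochondrial cells. TMEM108 had 43.7 CPM in Drug_Radiation, 4.95 in Drug, 14.1 in Radiation and 4.65 in Control high-mitochondrial cells, against 51.2, 2.33, 1.56 and 3.72 CPM in the other cells of those libraries, and its ratio was far from 0 in Radiation alone among the libraries without QTP. Of these 10 genes none passed against nearest-depth cells; CCL26 was not tested there.

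The difference with radiation was -1.42 for KCNJ6. Drug had 43.0 CPM in high-mitochondrial against 15.1 CPM in other cells, while in the other 3 libraries the log2 ratio lay between -0.18 and 0.23.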

How the results depend on the processing

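Against 3459 genes higher and 2872 lower, scaling by the nuclear-encoded total gave 5959 and 914, no filter on low counts 2268 and 4428, a filter of 20 CPM 1791 and 1765 of 5390 genes tested, and the fit with no replicate block 1255 and 516. DESeq2 called 1989 higher. The members below and above the median of nuclear-encoded UMIs, each against nearest-depth cells, gave 1294 and 1727 (shallower) and 1931 and 1747 (deeper), with 2165 calls the same and 4 opposite between them. Leaving out 1 library at a time gave 1767 to 3429 higher and 1631 to 3396 lower, the smallest numbers without Drug_Radiation and the largest without Control. Taking 5% or 20% of barcodes, a limit of 20% mitochondrial UMIs, nearest-depth cells, or leaving out ribosomal protein genes and mitochondrial copies kept both counts within 1.5 times.

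The QTP interaction, 762 genes, passed for 354 with a filter of 20 CPM, 447 with 5% and 104 with 20% of barcodes, and 89 against nearest-depth cells. The radiation interaction, 1 gene, passed for 9 with no filter and 7 with 20% of barcodes, and for 0 on the nuclear-encoded total, with DESeq2, 20 CPM, 5% of barcodes, the 20% limit and nearest-depth cells, beside 94 at an unadjusted p under 0.05.

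The sign turned on the nuclear-encoded total for CDKN1A (0.11), TOP2A (0.19), HSPD1 (0.16), ATP5F1B (0.0319), FTH1 (0.0757) and DDIT3 (0.29). TOP2A was also above 0 with 20 CPM (0.0322), 5% of barcodes (0.26), nearest-depth cells (0.29), shallower (0.63) and deeper members (0.0512). DDIT3 was above 0 with 20 CPM (0.0948) and no block (0.0379) and ran from -0.16 to 0.0397 over the libraries left out, above 0 without Drug and without Drug_Radiation, and NDUFS1 below 0 with no filter (-0.0038). Over 79 named genes and all alternatives, 1139 of 1299 values kept sign and side of the threshold, 129 lost the call, 15 gained one and 16 turned. The cause of these changes was not tested beyond the smaller number of samples or genes that some alternatives have by construction. Depth limits Control and Radiation, where many named genes rest on under 20 UMIs, and intervals for spread between cultures cannot be had with 1 library per treatment.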

Other observations

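The MTRNR2L genes are short nuclear copies of the mitochondrial large ribosomal RNA gene and code for humanin-like peptides. They are nearly identical to the mitochondrial sequence, so reads of mitochondrial ribosomal RNA may be counted on them, and their counts are uncertain. Of 11 such features in the files 6 were tested, and 5 of these were higher in high-mitochondrial cells. MTRNR2L1 had 3535 UMIs in the high-mitochondrial and 27145 in the other cells of Drug_Radiation, and its paired log2 ratio was 0.87 (adjusted p = 4.66e-09). MTRNR2L12 stood at 0.83, MTRNR2L8 at 0.74, MTRNR2L6 at 0.62 and MTRNR2L10 at 0.53, and MTRNR2L4 at 0.37 did not pass the test (adjusted p = 0.0609). The ratio of MTRNR2L1 was 0.70 in Drug_Radiation, 1.13 in Drug, 0.83 in Radiation and 0.81 in Control.

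Of the metallothioneins, zinc-binding proteins, only MT1X and MT2A passed the filter, and both were lower in the paired fit (-0.60, adjusted p = 7.34e-06, and -0.30, adjusted p = 0.0123). MT2A did not pass without Drug (adjusted p = 0.091) or without Drug_Radiation (0.182). As a share of nuclear-encoded UMIs the list stood at 0.229% in Drug_Radiation, 0.2% in Drug, 0.302% in Radiation and 0.26% in Control high-mitochondrial cells, against 0.286%, 0.216%, 0.301% and 0.216% in the other cells of those libraries. It was thus lower in both QTP libraries and not in Radiation or Control on that scale. Tricarboxylic acid cycle genes were higher in 1 of 16 and lower in 9, with a median of -0.25 on TMM scaling and 0.06 on the nuclear-encoded total.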
